A study of Mus musculus and Rattus norvegicus with 26 samples.

Results

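The voltage-gated sodium channel genes examined here were the 8 symbols Scn1a, Scn2a1, Scn3a, Scn4a, Scn7a, Scn8a, Scn9a and Scn10a, and a stretch of intron sequence was counted for a gene when the deposited lists gave it that symbol. Of the 8 genes, 7 had at least 1 listed intron, out of 13695 gene symbols in the 6 lists. Together they contributed 65 of 85860 listed introns and 76 of 112345 contigs, a contig being a stretch of intron covered by neighbouring reads. Scn4a had no contig in any of the 6 lists.

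The study sequenced RNA from 26 libraries to find intron sequence kept in cytoplasmic transcripts, and the contigs of each condition were pooled into 1 list. Mouse neurons were hippocampal cells of C57BL/6 embryos at embryonic day 18, grown in culture, from which dissected dendrites (3 libraries) and somas (3 libraries) were taken. Rat neurons came from Sprague-Dawley embryos at embryonic day 18, again as dendrites (2 libraries) and somas (3 libraries). The non-neuronal cells were mouse BAT cells, that is interscapular brown adipose tissue of CD-1 embryos at day 17.5 (6 libraries), and cardiomyocytes of transgenic C57BL/6 embryos at day 14.5 (9 libraries), counted by the labels, since the paper describes fewer and the lists do not show which entered. The cardiomyocytes carried the Fucci probe mAG-hGem (1/110), a green cell cycle reporter under the CMV promoter inherited from hemizygous males mated to wildtype females, and were sorted for fluorescence and viability. All libraries were made from RNA amplified in 3 rounds (aRNA). Age and culture differed between the neuronal and non-neuronal cells, and strain between the BAT cells and the others, so these and the cell type cannot be told apart.

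Sodium channel alpha subunits form the pore through which sodium enters during the rising phase of an action potential. Neurons of the brain mainly use the products of Scn1a, Scn2a1, Scn3a and Scn8a, pain-sensing neurons also those of Scn9a and Scn10a, and skeletal muscle that of Scn4a. Their genes are long, and most of that length is intron, which is normally removed in the nucleus.

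Each list gives 1 read count per intron, and these counts were summed over the introns of a gene. The lists held 3086576 reads for mouse dendrites, 1855447 for mouse somas, 1007530 for rat dendrites, 2094541 for rat somas, 17858440 for BAT cells and 12201042 for cardiomyocytes. Values between lists are therefore given as RPM, the reads of a gene scaled to the reads of all listed introns of that list. The soma, BAT and cardiomyocyte samples were whole cell bodies or cells and can hold nuclear RNA, which dissected dendrites should not contain, so retained introns and unspliced nuclear RNA cannot be told apart in them. With 1 pooled list for each condition there was no replicate spread, and intervals are 95% Poisson, Wilson or binomial intervals that cover counting error only. A gene that is not in a list had no intron that passed the study's filters there, which is not the same as having no reads.

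The number of the 8 genes listed differed between the lists, as did the share of all symbols. Mouse dendrites listed 7 of the 8 genes, where 62.8% of all 13695 symbols were listed, and mouse somas listed 5, against 43% of all symbols. BAT cells listed 6 (74.6% of all symbols), and cardiomyocytes 3 (45.3%). The rat lists held 2 genes each, Scn7a and Scn8a in dendrites and Scn8a and Scn10a in somas, against 32.7% and 24.8% of all symbols. The sodium channel genes thus had the most listed members in mouse dendrites and the fewest in the rat lists, in which fewer symbols of any kind were listed. With 8 genes, these counts are too few to be set apart from the shares of all symbols.

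The summed reads followed another order. Mouse dendrites held 1115 reads in 25 introns of these genes (95% Poisson interval 1051 to 1182), mouse somas 2450 in 11 introns (2354 to 2549), rat dendrites 75 in 2 introns and rat somas 970 in 3. BAT cells held 24757 reads in 19 introns, and cardiomyocytes only 13 reads in 5 introns (6.92 to 22.2). The RPM were 361 in mouse dendrites, 1320 in mouse somas, 74.4 in rat dendrites, 463 in rat somas, 1386 in BAT cells and 1.07 in cardiomyocytes. A single intron held much of each sum, 21.3% in mouse dendrites, 42.0% in mouse somas, 54.7% in rat dendrites, 93.4% in rat somas, 85.4% in BAT cells and 46.2% in cardiomyocytes. The reads of mouse dendrites were thus spread over many introns with few reads, and the reads of mouse somas, rat somas and BAT cells sat mostly in 1 or a few introns.

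**Figure D1:**
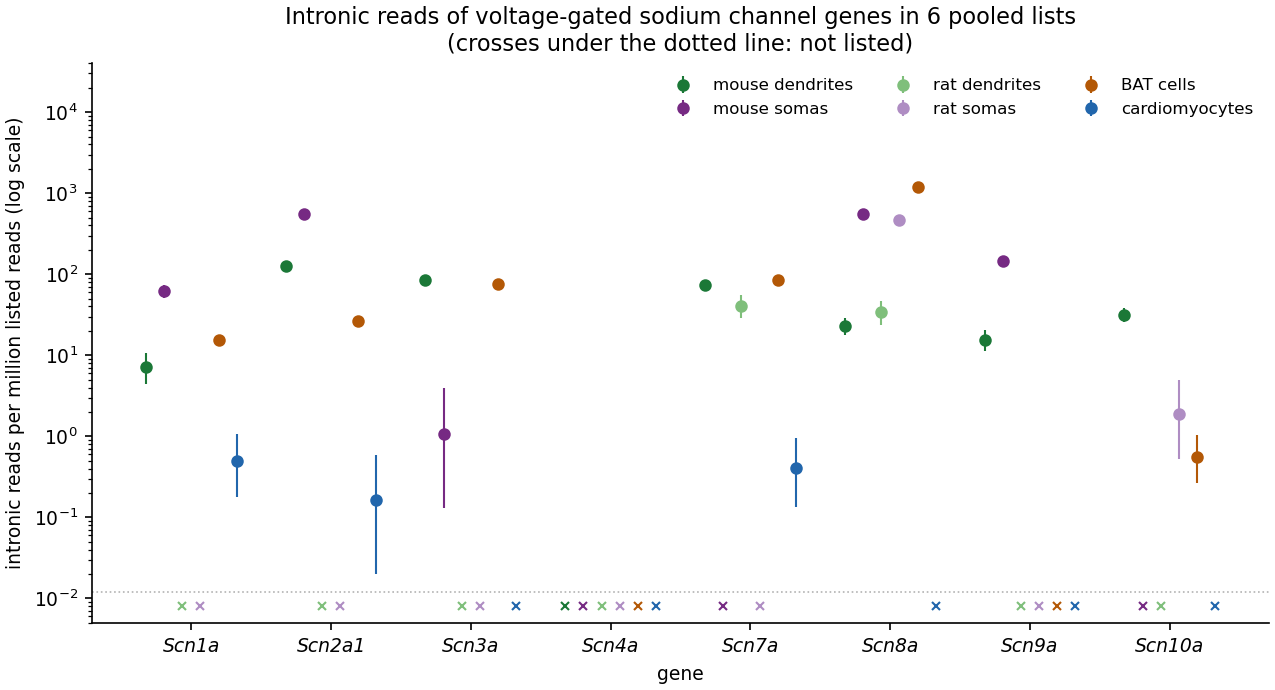
Intronic RPM of each sodium channel gene (log axis) in the 6 pooled lists, with bars for the 95% Poisson interval of the count and crosses below the dotted line where a gene was not listed. Scn8a in BAT cells was the highest point at 1183 RPM, Scn4a was in no list, and the 3 genes listed in cardiomyocytes all lay under 1 RPM.

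Scn8a, which encodes the main channel of the axon initial segment and the nodes of Ranvier in mature neurons, was listed in 5 of the 6 lists, more than any other of the 8 genes. It had 71 reads in mouse dendrites (interval 55.5 to 89.6), 1034 in mouse somas (972 to 1099), 34 in rat dendrites (23.5 to 47.5), 966 in rat somas (906 to 1029) and 21131 in BAT cells. In both species the somas were above the dendrites, by 24.2-fold in mouse (interval 19.1 to 30.8) and 13.7-fold in rat (9.72 to 19.2) by RPM. Almost all of the soma signal lay in 1 intron per species, intron 10 in mouse with 1028 reads and intron 4 in rat with 906. Without that intron the direction turned in mouse, with a log2 ratio of dendrites over somas of 2.83, from 71 dendritic reads against 6 soma reads. In rat the log2 ratio was then 0.24, from 34 against 60 reads, too small a difference to give a direction.

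The BAT signal of Scn8a also came from 1 intron, number 21, which ranked 127 among the 30018 introns of that list. Its single contig of 871 nt covered chr15:100860886-100861756 (mm9, plus strand) inside an intron of 1847 nt, 592 nt from the 5′ splice site and 384 nt from the 3′ splice site, and touched no annotated exon. The soma contig of intron 10 was 719 nt long, at chr15:100806736-100807454 in an intron of 8972 nt. The 3′ ends of both contigs are shown because they hold the most reads of this gene, with the last 100 bases of the contig in capitals and the 100 bases after it in lower case, at chr15:100861657-100861856 and chr15:100807355-100807554.
Scn8a intron 21, BAT cells: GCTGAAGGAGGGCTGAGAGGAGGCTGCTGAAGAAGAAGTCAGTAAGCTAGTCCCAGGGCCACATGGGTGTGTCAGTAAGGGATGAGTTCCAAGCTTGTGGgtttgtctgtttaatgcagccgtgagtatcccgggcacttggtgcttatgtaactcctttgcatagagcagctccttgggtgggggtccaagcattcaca
Scn8a intron 10, mouse somas: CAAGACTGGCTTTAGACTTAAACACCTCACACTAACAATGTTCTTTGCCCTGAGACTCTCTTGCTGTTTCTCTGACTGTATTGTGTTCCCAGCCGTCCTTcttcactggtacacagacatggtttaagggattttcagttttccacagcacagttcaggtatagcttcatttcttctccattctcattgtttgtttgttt
Neither stretch had a run of 8 or more adenines within 300 nt after the contig. The intron numbers of Scn8a are those of the lists, and ran 1 or 2 ahead of the annotated transcript, depending on the listed transcript.

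Scn2a1, which encodes a channel of excitatory neurons and of immature axons, was the other gene with over 1000 reads in mouse somas. Its 7 listed introns in mouse dendrites held 385 reads (347 to 425) and its 4 in mouse somas 1032 (970 to 1097), an RPM 4.46-fold higher in somas (3.97 to 5.01), which fell under the 4-fold limit on a scale of sequenced reads (log2 ratio of dendrites over somas -1.68). BAT cells had 471 reads in 3 introns, cardiomyocytes 2 reads in 1 intron, and neither rat list held the gene. Intron 20 carried 1013 of the soma reads and 96 of the dendritic reads, and intron 25 carried 238 of the dendritic reads, over 2 contigs counted together, and 4 of the soma reads. The difference between somas and dendrites thus went opposite ways in these 2 introns of 1 gene, and without intron 20 the log2 ratio of dendrites over somas was 3.19 in place of -2.16.

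Dendrites and somas shared 3 introns of Scn2a1, and the contigs overlapped in 2 of them, while those of intron 21 lay 2097 nt apart. In intron 20 the overlap was 288 nt and ended with the soma contig. In intron 25, the longest intron of the gene at 11499 nt, the contigs of both lists started at the first base of the intron and ended 3 nt apart, after 159 nt in dendrites and 156 nt in somas. Intron 25 was also the one intron of these genes found in all 4 mouse lists, with 2 reads each in BAT cells and cardiomyocytes, but there the contigs lay 1556 nt or more from the dendritic ones.

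Scn1a, the channel most used by inhibitory interneurons, was listed in the 4 mouse lists and in neither rat list. It had 22 reads in mouse dendrites, 114 in mouse somas, 276 in BAT cells and 6 in cardiomyocytes, or 7.13, 61.4, 15.5 and 0.492 RPM. Somas were 8.62-fold above dendrites (5.48 to 13.6), which without the intron with the most reads fell under the 4-fold limit (log2 ratio of dendrites over somas -1.77). The dendritic reads all came from intron 11 and the soma reads from introns 21 and 25, with 69 and 45 reads, so that no intron was shared between them. BAT cells had 274 reads in intron 21, in a contig 2655 nt away from that of the somas.

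Scn3a, the form most used in the embryonic brain, showed the opposite order of the neuronal lists. Its reads were 265 in mouse dendrites over 3 introns (234 to 299), 2 in mouse somas in 1 intron and 1372 in BAT cells over 4 introns (1300 to 1447), and it was not listed in rat or in cardiomyocytes. The ratio of dendrites to somas was 79.7 (21.7 to 292), with only 2 reads in the denominator. In BAT cells 1344 reads lay in intron 10, in a contig of 1059 nt at chr2:65357363-65358421 (mm9, minus strand), and 1 of the 2 contigs of intron 17 overlapped exons of other annotated Scn3a transcripts. The 2 soma reads fell in the same place as 133 dendritic reads, in intron 4, where the contigs overlapped by 187 nt. The overlap, chr2:65364846-65365032 on the minus strand of mm9, is given as the only intronic place of Scn3a in 2 lists, without capitals.
Scn3a intron 4: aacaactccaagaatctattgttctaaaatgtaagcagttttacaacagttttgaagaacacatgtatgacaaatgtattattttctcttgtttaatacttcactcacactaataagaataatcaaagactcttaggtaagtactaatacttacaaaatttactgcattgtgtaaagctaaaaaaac
The dendritic reads of Scn3a lay mostly in intron 4 and intron 21, with 133 and 128 reads, and none of the introns listed in BAT cells was among them.

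Scn9a and Scn10a encode channels of pain-sensing neurons, and both had listed introns in cultured hippocampal neurons. Scn9a was listed only in the mouse neuronal lists, with 47 reads in dendrites (34.5 to 62.5) and 268 in somas (237 to 302), an RPM 9.49-fold higher in somas (6.97 to 12.9). Its intron 8 had contigs with identical ends in both lists, 317 nt at chr2:66388461-66388777 (mm9, minus strand), with 47 reads in dendrites and 33 in somas. This contig ran to the last base of the intron. The last 150 bases of intron 8, chr2:66388461-66388610, are given with the final AG of the intron in capitals.
Scn9a intron 8: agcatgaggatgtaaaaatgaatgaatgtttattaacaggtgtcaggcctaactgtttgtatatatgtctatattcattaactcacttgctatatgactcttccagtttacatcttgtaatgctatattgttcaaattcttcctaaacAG
The other 235 soma reads of Scn9a came from intron 10, and without them the log2 ratio of dendrites over somas was -0.22, so that the soma excess rested on intron 10. Scn10a had 98 reads in mouse dendrites (79.6 to 119), of which 92 were in intron 14, 4 in rat somas and 10 in BAT cells. It was not listed in mouse somas, and the dendrites were at least 19.6-fold higher with a floor of 3 reads for the somas, a bound that fell from a log2 ratio of 4.30 to 0.27 without intron 14.

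Scn7a encodes a relative of these channels that senses extracellular sodium and is known from glia and Schwann cells. It had the most listed introns, with 8 in mouse dendrites, 7 in BAT cells and 3 in cardiomyocytes, and contigs in 10 of its 24 annotated introns in at least 1 mouse list. The reads numbered 227 in mouse dendrites (198 to 259), 41 in rat dendrites (29.4 to 55.6), 1497 in BAT cells (1422 to 1575) and 5 in cardiomyocytes. Scn7a was in neither soma list, which put dendrites at least 45.5-fold higher in mouse and at least 28.4-fold higher in rat. It was the only one of the 8 genes listed in dendrites and not in somas of both species. In BAT cells 1270 reads fell in intron 24, in a contig of 446 nt, whereas the dendritic reads were at most 85 per intron.

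The contigs of Scn7a in BAT cells and cardiomyocytes overlapped in introns 4 and 7, although cardiomyocytes had only 1 and 2 reads there. The shared stretch of intron 7 was 109 nt long. The 3′ end of the BAT contig of intron 24 with 100 bases after it, chr2:66515118-66515317 on the minus strand of mm9, is shown for the intronic place of this gene with the most reads, with the last 100 bases of the contig in capitals.
Scn7a intron 24: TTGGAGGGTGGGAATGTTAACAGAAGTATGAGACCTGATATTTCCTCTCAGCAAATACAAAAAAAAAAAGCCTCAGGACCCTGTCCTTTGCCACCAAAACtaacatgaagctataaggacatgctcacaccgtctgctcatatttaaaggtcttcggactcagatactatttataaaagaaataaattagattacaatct
Of 6 astrocyte markers, 4 were listed in mouse dendrites with 2983 reads, led by Aldh1l1 with 2826, and 3 in mouse somas with 264 reads, led by Slc1a2, with Gja1 in neither. This was 966 RPM in mouse dendrites and 142 in mouse somas, and in rat 68.5 in dendrites and 120 in somas, where Slc1a2 alone made the somas higher and Slc1a3 was higher in dendrites (68.5 against 12.9 RPM). Sums of other markers in rat dendrites and somas were 138 against 27.7 RPM for oligodendrocytes, 696 against 59.7 for microglia (Itgam alone in dendrites and Ptprc alone in somas), 2.98 against 8.59 for skeletal muscle, 319 against 0.955 for fibroblasts and 250 against 2.86 for endothelium. A list of 8 markers of sensory neurons and nerve glia had at most 10 reads in any of the 6 lists, with Isl1 at 2 in mouse somas and S100b at 9 in rat dendrites. The part of these cells in the values of Scn7a, Scn9a and Scn10a was not tested.

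Scn4a, the channel of skeletal muscle, was the gene without a contig. At 24200 nt its summed introns were the shortest of the 8 genes, against 79524 nt for Scn10a and 161769 nt for Scn1a, and 0 of its 23 introns were listed (Wilson upper limit 14.3%). Markers of skeletal muscle were at 2 of 7 in mouse dendrites, mostly Actn3 with 1013 reads, and 4 of 7 in BAT cells with 1541 reads, of which Myh3 had 1197. Myod1 and Myog were in none of the 6 lists.

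Since long introns offer more room for a contig, levels of different genes were compared per kb of annotated intron. In mouse somas Scn8a stood at 7 and Scn2a1 at 6.30 RPM per kb, followed by Scn9a at 0.996, Scn1a at 0.380 and Scn3a at 0.0107. In mouse dendrites the order was Scn2a1 at 1.41, Scn3a at 0.852, Scn7a at 0.706, Scn10a at 0.399, Scn8a at 0.289, Scn9a at 0.105 and Scn1a at 0.0441. BAT cells had Scn8a at 14.9, Scn7a at 0.805, Scn3a at 0.762, Scn2a1 at 0.299, Scn1a at 0.0955 and Scn10a at 0.00704. The order of the genes therefore differed from list to list, and only Scn2a1 was among the 2 highest in both neuronal lists of the mouse. Whether these orders hold in single libraries was not tested.

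Dendrites and somas were compared gene by gene, with a gene called when it differed by at least 4-fold in RPM and had at least 10 reads in the 2 lists together. All 7 listed genes could be compared in mouse. Scn3a, Scn7a and Scn10a were higher in dendrites, where 48.2% of 8097 genes were called in that direction, and Scn1a, Scn2a1, Scn8a and Scn9a were higher in somas, where 23.5% of genes were. The median log2 ratio of the 7 genes was -2.16, and that of all genes compared was 1.85. In rat, Scn7a was higher in dendrites (50.9% of 4284 genes) and Scn8a in somas (27.4% of genes). For both genes that could be compared in rat, the direction was the one seen in mouse. Summed over the genes, RPM were 3.66-fold higher in mouse somas (3.41 to 3.92), but the log2 ratio of dendrites over somas reversed from -1.87 to 1.61 with soma contigs of at most 400 nt, the limit that the study sets for whole cells. In rat they were 6.22-fold higher in somas (4.92 to 7.86), and the log2 ratio of -2.64 shrank to -0.38 with that limit and reversed to 1.28 without the intron with the most reads. The soma excess of the sums thus rested on introns with longer contigs, since the limit left 105 of 2450 reads in mouse somas and 60 of 970 in rat somas. The contigs behind these sums covered 8725 nt in mouse dendrites and 3867 nt in mouse somas, with means of 44.6 and 223 reads per intron. The medians were closer, 26 in dendrites and 33 in somas. Most of the soma reads lay in intron 10 of Scn8a (1028) and intron 20 of Scn2a1 (1013). In rat the covered lengths were 594 nt in dendrites and 2803 nt in somas, with means of 37.5 and 323 reads per intron.

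Against BAT cells the directions were mixed. In this comparison mouse somas were higher for Scn2a1 by 21.1-fold (18.9 to 23.5), which reversed to a log2 ratio of -1.36 without the intron with the most reads, and for Scn9a by at least 860-fold, 2 of 7 genes compared, with 22.7% of 9298 genes called in that direction. BAT cells were higher for Scn3a by 71.3-fold (19.5 to 260), which fell to a log2 ratio of somas over BAT cells of -0.54 without intron 10, and for Scn7a by at least 51.8-fold, 2 of 7, with 37.5% of all genes. Without the intron with the most reads, the log2 ratio of somas over BAT cells went from 9.75 to 6.73 for Scn9a. For Scn7a it went from -5.70 to -2.97. Both rest on the floor and stayed past 4-fold. Scn1a, at 3.98-fold higher in somas, and Scn8a, at 2.12-fold higher in BAT cells, were under the 4-fold limit in this comparison. Intron 21 was the only BAT intron of Scn8a, so a ratio without it could not be measured, and for Scn1a the log2 ratio without its intron 21 was 7.76, with 2 BAT reads left. Scn10a, with 10 reads in BAT cells and none listed in somas, had too few reads for a direction. The summed RPM were 1.05-fold higher in BAT cells (1.01 to 1.09), which reversed to a log2 ratio of somas over BAT cells of 2.70 without intron 21 of Scn8a and of 0.74 with contigs of at most 400 nt. The BAT contigs covered 7817 nt with a mean of 1303 reads per intron.

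Cardiomyocytes were lower than both other mouse cell types. All 4 genes compared were higher in mouse somas than in cardiomyocytes (39.7% of 6743 genes were called in that direction, and 31.5% in the other, with none of the 4). Scn8a was at least 2266-fold higher, Scn9a at least 587-fold, and Scn1a 125-fold (56.2 to 278). Without the intron with the most reads per gene these fell to log2 ratios of 3.72 for Scn8a and 6.18 for Scn9a, both with the floor, and 5.62 for Scn1a, all still past 4-fold. Against BAT cells, 5 of 6 genes were lower in cardiomyocytes, where 53.5% of 9359 genes were higher in BAT cells and 21.8% higher in cardiomyocytes, and none of the 6 was among the latter. Scn7a had 1497 reads in BAT cells and 5 in cardiomyocytes, an RPM ratio of 205 (87.3 to 480). Without the intron with the most reads Scn1a reversed to a log2 ratio of BAT cells over cardiomyocytes of -2.13, and Scn2a1 fell to 0.77. In the same setting Scn7a fell from 7.68 to 4.96 and Scn3a, with the floor, from 8.29 to 2.67, both still past 4-fold. The summed RPM were 1239-fold higher in mouse somas (723 to 2123) and 1301-fold higher in BAT cells (760 to 2227) than in cardiomyocytes, whose contigs covered 603 nt with a mean of 2.6 reads per intron.

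**Figure D2:**
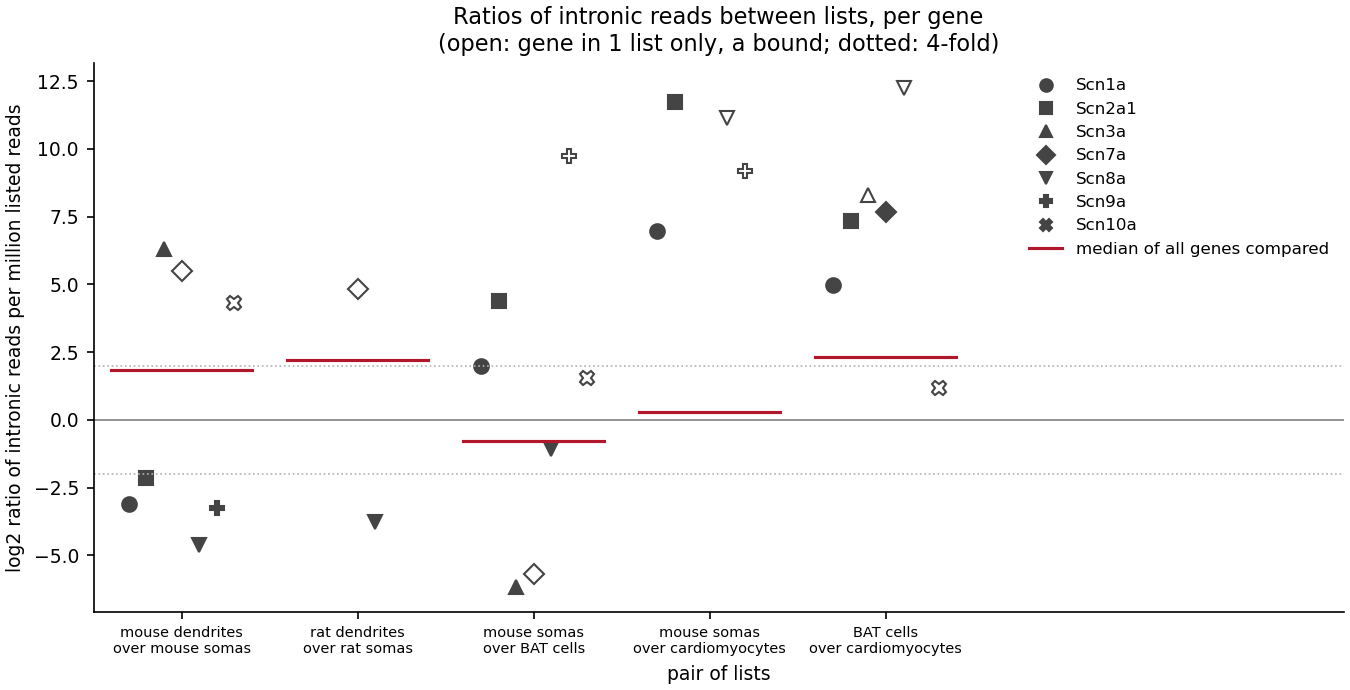
Log2 ratio of intronic RPM for each sodium channel gene in 5 pairs of lists, with open symbols for genes found in 1 list only (bounds from a floor of 3 reads, which alone set the side of Scn10a for somas over BAT cells), dotted lines at 4-fold and a red line at the median of all genes compared. The mouse dendrite to soma ratios lay on both sides of the 4-fold lines, 3 above and 4 below, and all ratios to cardiomyocytes lay above 0.

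The genes had 201 annotated introns, of which 41 (20.4%) held a contig in at least 1 of the 4 mouse lists, against 24.8% of the 187547 introns of all protein-coding genes. By list the share was 12.4% in mouse dendrites (Wilson interval 8.57 to 17.7), 5.47% in mouse somas (3.08 to 9.53), 9.45% in BAT cells (6.14 to 14.3) and 2.49% in cardiomyocytes (1.07 to 5.69). Over all genes it was 10.4%, 5.62%, 16.0% and 6.94% in the same order. The sodium channel genes were thus near the other genes in the neuronal lists and under them in the non-neuronal lists. Listed introns were longer, with a median of 3437 nt against 1388 nt for the others.

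Much of this went with intron length. In mouse dendrites 1 of 57 introns under 1000 nt, 13 of 88 from 1000 to under 3000 nt and 9 of 42 from 3000 to under 10000 nt held a contig, that is 1.75%, 14.8% and 21.4%, where all genes had 2.14%, 10.6% and 21.6%. In BAT cells the shares were 1.75%, 3.41% and 28.6%, against 7.71%, 17.1% and 27.5% for all genes. The lower share of the sodium channel genes in BAT cells was clear in introns from 1000 to under 3000 nt (Wilson interval 1.17 to 9.55), while the interval of those under 1000 nt (0.310 to 9.29) held the share of all genes, and their introns from 3000 to under 10000 nt were listed about as often as those of other genes. Of the 14 introns of 10000 nt or more, 2 held a contig in mouse dendrites, 1 in mouse somas, 3 in BAT cells and 2 in cardiomyocytes, where all genes had 26.4%, 14.8%, 28.8% and 13.6%. The shares of the sodium channel genes, 14.3%, 7.14%, 21.4% and 14.3%, had intervals that held those of all genes.

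**Figure D3:**
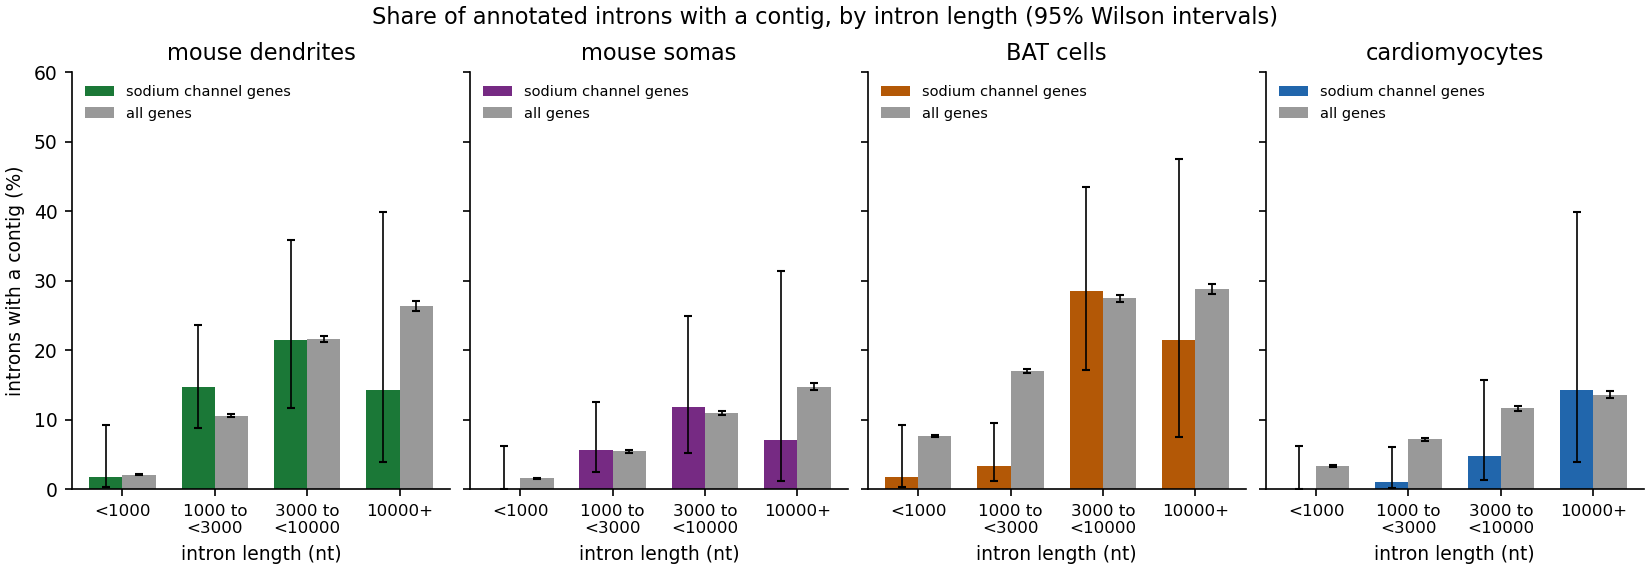
Share of annotated introns with a contig in 4 length classes for the sodium channel genes (colour) and all genes (grey), 1 panel for each mouse list, with 95% Wilson intervals. In both groups the share rose from the introns under 1000 nt to those of 3000 to under 10000 nt in every panel, and in BAT cells the coloured bars were below the grey ones for introns under 3000 nt.

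Sodium channel genes are known for rare introns that begin with AT and end with AC in place of the usual GT and AG. All 8 genes had at least 1 such intron in the annotated transcript, 12 in all, from 107 nt to 9277 nt long. None of the 12 held a contig in any of the 4 mouse lists (Wilson upper limit 24.2%), while 41 of the 184 introns with GT and AG did (22.3%). Over all genes, 20 of 167 introns with AT and AC held a contig (12%) and 25.2% of those with GT and AG. The counts are too few to say whether the 12 introns differ from the rest. Intron 2 of Scn4a, chr11:106210107-106210213 on the minus strand of mm9, is the shortest of them and is printed whole, with its first and last 2 bases in capitals.
Scn4a intron 2: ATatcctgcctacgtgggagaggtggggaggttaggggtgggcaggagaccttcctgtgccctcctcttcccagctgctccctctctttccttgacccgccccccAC
The remaining 5 introns had GC and AG or other ends as annotated, and none was listed.

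**Figure D4:**
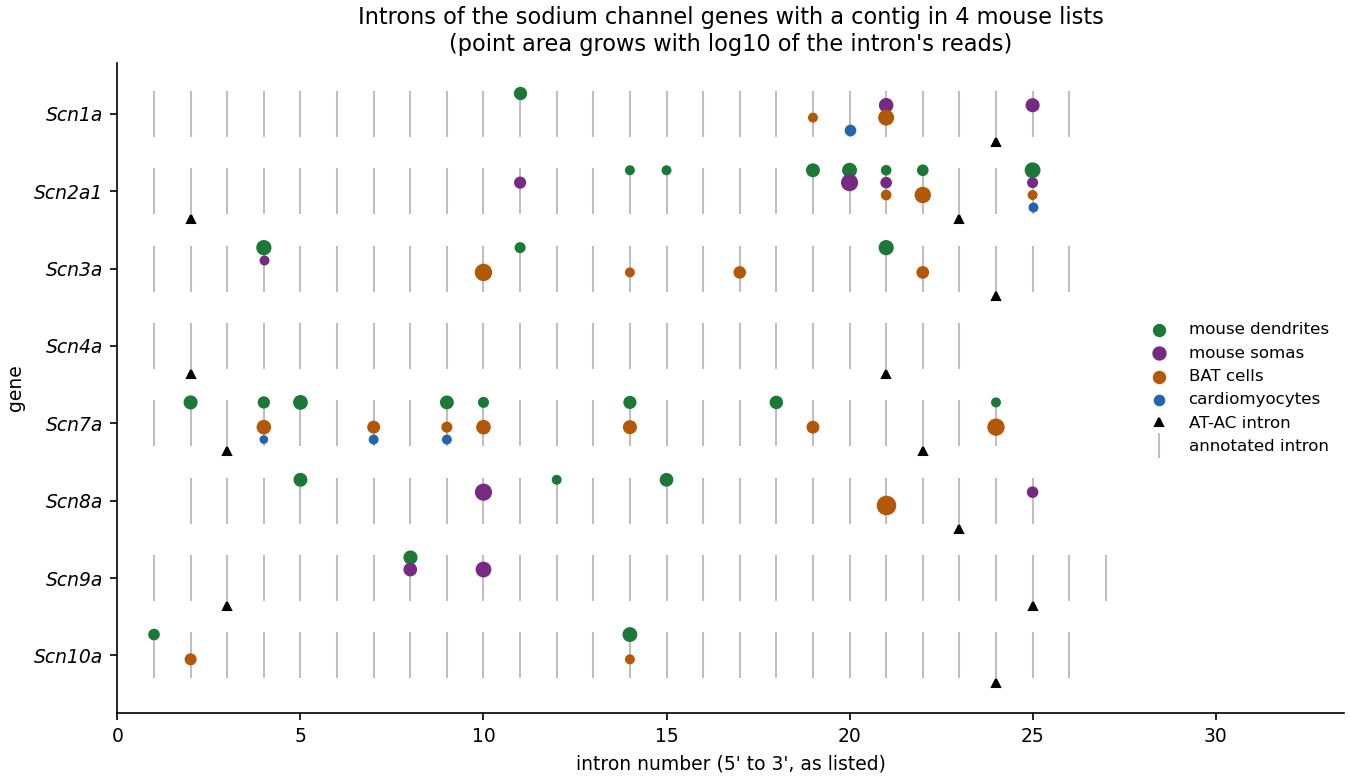
Introns with a contig in 4 mouse lists for each sodium channel gene by the intron number of the lists, with point area growing with the log10 of the reads, grey ticks for annotated introns and triangles for introns with AT and AC ends. Numbers of Scn8a are 1 higher than annotated, and 2 higher for its intron 5, while Scn7a had the most introns with points, Scn4a had none, and no triangle lies under a point.

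Some listed introns of these genes recurred between lists. Of 41 distinct introns, counted by transcript, 14 were in 2 or more mouse lists (34.1%), against 39.5% of 46599 introns of all genes. Introns 4 and 9 of Scn7a and intron 21 of Scn2a1 were in 3 lists. Mouse dendrites and somas shared 5 introns, and in 4 of them the contigs overlapped, where over all genes 58.0% of 5047 shared introns did. In 2 of the 4, Scn2a1 intron 25 and Scn9a intron 8, the contigs shared a start or an end to the base, as 10.3% of shared introns did over all genes. Dendrites and BAT cells shared 9 introns, of which only intron 9 of Scn7a had overlapping contigs (44.0% over all genes), and somas and BAT cells shared 3, none overlapping (52.4%). Where neuronal and BAT lists named the same intron of a sodium channel gene, the contigs were thus mostly at different places, from 18 nt apart in intron 14 of Scn7a to 4908 nt in its intron 10. BAT cells and cardiomyocytes shared 4 introns, 2 of them with overlapping contigs (65.3% over all genes).

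Contigs of these genes had a median length of 219 nt over the 4 mouse lists, against 268 nt for all genes, and 15 of 71 were longer than 400 nt (21.1%, against 32.4% of all contigs). The first round of amplification starts from primers of thymines, which can bind runs of adenines in the RNA. A run of at least 10 adenines lay within 300 nt downstream of 5 of the 11 contigs in mouse somas (45.5%, Wilson interval 21.3 to 72.0), where 18.6% of all soma contigs had one. In the other lists it was 1 of 30 in dendrites (8.11% over all genes), 1 of 25 in BAT cells (7.36%) and 1 of 5 in cardiomyocytes (9.53%). On the other side, upstream of the contigs, none of the 71 had such a run, and 2.60% of contigs of all genes did.

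Of the 5 soma contigs, 4 ended 2 to 8 nt before their runs, and that of intron 25 of Scn8a ended inside its run. Those of intron 21 of Scn1a, introns 11 and 21 of Scn2a1 and intron 25 of Scn8a are shown to give the distance to the run, with the last 60 bases of the contig, the bases between and the adenines after the contig in capitals, which for Scn8a are only the 17 of the run beyond the contig, read on the strand of the gene from mm9, at chr2:66128060-66128138 (minus strand), chr2:65540218-65540298, chr2:65580671-65580754 and chr15:100867241-100867317 (plus strand).
Scn1a intron 21: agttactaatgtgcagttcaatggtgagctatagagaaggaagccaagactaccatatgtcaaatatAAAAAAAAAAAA
Scn2a1 intron 11: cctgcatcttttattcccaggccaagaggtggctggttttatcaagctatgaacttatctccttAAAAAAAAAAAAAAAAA
Scn2a1 intron 21: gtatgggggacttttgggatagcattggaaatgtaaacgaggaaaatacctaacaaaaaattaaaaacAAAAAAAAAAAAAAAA
Scn8a intron 25: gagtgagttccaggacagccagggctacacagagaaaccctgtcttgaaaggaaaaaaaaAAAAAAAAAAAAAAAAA
Both soma contigs of Scn1a, 2 of the 4 of Scn2a1 and 1 of the 2 of Scn8a were of this kind. Over all genes, 61.3% of the soma contigs with such a run were under 10 nt from it, and 39.8% of the dendritic ones. With the looser rule of 8 adenines within 30 nt on either side of the contig's 3′ end, which was chosen after these contigs had been seen, 7 of 11 soma contigs (27.0% of all soma contigs) and 4 of 30 dendritic contigs (15.3%) counted, the shared contigs in intron 25 of Scn2a1 among them. The introns with the most soma reads divided, since intron 20 of Scn2a1 had such a run at its end and intron 10 of Scn8a and intron 10 of Scn9a had none.

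**Figure D5:**
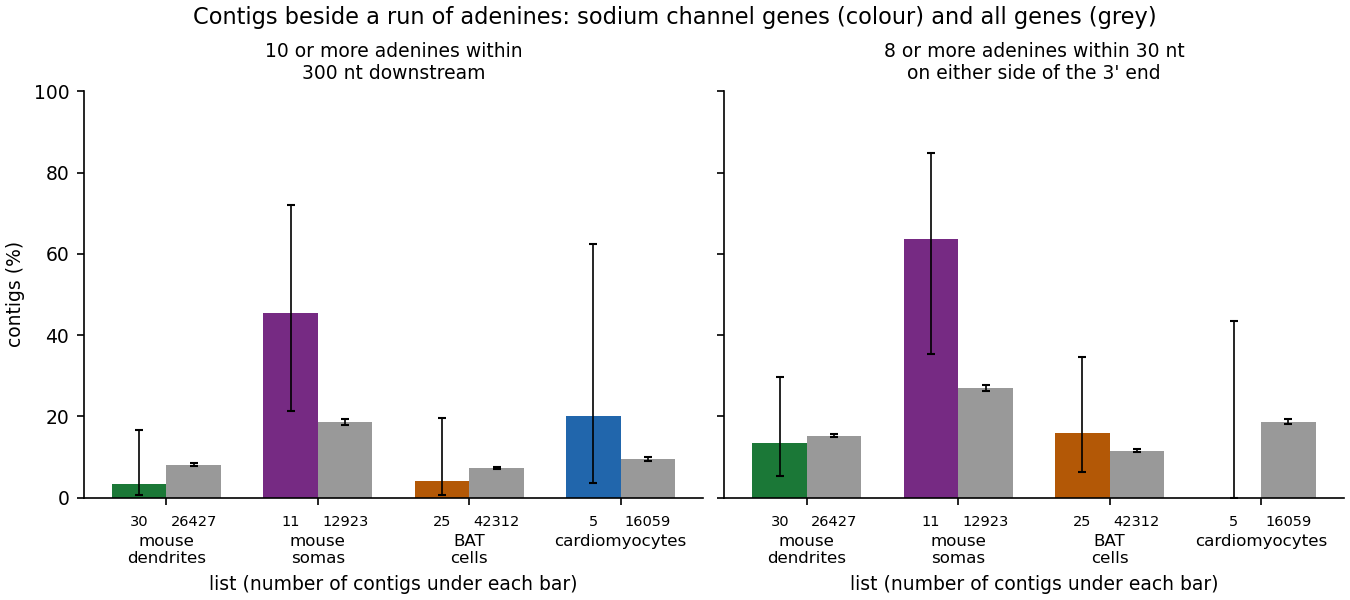
Share of contigs beside a run of adenines in 4 mouse lists, for the sodium channel genes (colour) and all genes (grey), by the 10-base rule downstream (left) and the 8-base rule around the 3′ end (right), with 95% Wilson intervals and the number of contigs under each bar. Mouse somas had the highest share in both panels for both groups of genes.

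Contigs could also start or end at the border of an exon. Of the 71 contigs in the mouse lists, 3 began at the first base of their intron, 1 in dendrites and 2 in somas, all in Scn2a1, and 2 ended at the last base, both in intron 8 of Scn9a. Over all genes 6.33% of contigs began at the first base and 7.43% ended at the last base. None of the 30 contigs in BAT cells and cardiomyocytes touched a border in the sodium channel genes, where 8.95% of all BAT contigs began at one.

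Other sodium channel genes were looked at beside the 8. Scn3b, a beta subunit gene, had 327 reads in mouse dendrites, 214 in rat somas and 46 in BAT cells. The leak channel gene Nalcn had 90 reads in mouse dendrites, 290 in mouse somas, 1275 in rat dendrites, 3887 in BAT cells and 38 in cardiomyocytes. Between mouse dendrites and somas Scn3b was called higher in dendrites, as Scn3a and Scn7a were, and Nalcn higher in somas, as Scn1a and Scn8a were, but in rat both were called the opposite way. Scn11a had 9 reads in rat somas and 4 in BAT cells, and Scn2b and Scn4b were in none of the lists.

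A list of 20 symbols for proteins that bind or regulate sodium channels included Spnb4 and Sptbn4, which name the same gene, and the myelin gene Mog, also counted among the oligodendrocyte markers. Of these, 14 could be compared between mouse dendrites and somas, with 3 higher in dendrites, Cntnap2 and Nfasc among them, and 3 in somas (Nedd4l, Nrcam and Tnr), against 48.2% and 23.5% of all genes. Nrcam, an adhesion molecule of the axon initial segment, had 448 reads in dendrites and 6752 in somas of mouse and 32 and 4187 in rat, the direction that Scn8a had in both species. Ank3, which anchors sodium channels at the initial segment, had 50 and 56 reads in mouse and 38 and 1339 in rat. Of 10 compared in rat, 4 were higher in dendrites, Mog among them, and 5 in somas, against 50.9% and 27.4% of all genes, with Nfasc and Nedd4l opposite to mouse. In mouse somas against BAT cells 4 of 15 were higher on each side (22.7% and 37.5% of all genes). Against cardiomyocytes 8 of 13 were higher in somas and 2 in cardiomyocytes (39.7% and 31.5%), and 9 of 16 were higher in BAT cells and 2 in cardiomyocytes (53.5% and 21.8%).

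The cell labels were checked against introns of marker genes, since introns can be listed without the mRNA having been measured. Of 12 neuron markers, 8 were listed in mouse dendrites with 2478 RPM, led by Dlg2, 9 in mouse somas with 35302, led by Gad1, 5 in rat dendrites with 2015 and 7 in rat somas with 9202. BAT cells had 7 with 1829 RPM and cardiomyocytes 2 with 557, both led by Dlg2. Map2 and Syn1 were in none of the 6 lists. Of 10 brown adipocyte markers, 9 were listed in BAT cells with 8382 RPM, led by Fabp4 and without Ppargc1a, against 7 in mouse dendrites with 429 and 4 in cardiomyocytes with 328. Of 10 cardiomyocyte markers, 8 were listed in cardiomyocytes with 27465 RPM, led by Ryr2, without Nkx2-5 and Pln, and 6 in BAT cells with 2780, led by Nkx2-5.

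Beside the reads of Scn8a, Scn3a and Scn7a in BAT cells stood further markers. Of 5 endothelial markers all 5 were listed there with 206 RPM, led by Tek, of 6 fibroblast markers 5 with 33.9, led by Col1a1, of 6 astrocyte markers 4 with 45.4, of 5 oligodendrocyte markers 2 with 0.392, and of 5 microglial markers 2 with 159, led by Ptprc. In mouse dendrites the endothelial markers stood at 639 RPM, the fibroblast markers at 80.0, the microglial markers at 342 and the oligodendrocyte markers at 1.94. In mouse somas they stood at 733, 55.0, 168 and 1.08. The endothelial sums hid opposite genes, since Flt1 was higher in dendrites (443 against 4.31 RPM) and Kdr in somas (381 against 3.24). Astrocyte, oligodendrocyte, microglial and fibroblast markers were not listed in cardiomyocytes. Their part in the values of the sodium channel genes was not tested, and fewer cells of a type and less RNA per cell cannot be told apart in pooled lists.

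For each gene in at least 3 lists, the 3 genes nearest to it were found by the mean absolute difference in log2 of RPM plus 1 over the 6 lists, among 7274 other genes in at least 3 lists. For Scn2a1 they were Csrnp3 (mean difference 0.19), Clstn2 (0.25) and Eml6 (0.30). For Scn8a the genes named here were further off, Parg (1.22) and Syt1 (1.22), of which Syt1 had 72 reads in mouse dendrites, 8662 in mouse somas and 8127 in BAT cells. Scn3a was nearest to Gabra3 (0.07), which had 201 reads in mouse dendrites, 2 in mouse somas and 1352 in BAT cells, and then to Dytn (0.09) and 4930528F23Rik (0.15). Scn1a was nearest to Tkt (0.16), Nup155 (0.29) and Ssfa2 (0.35), Scn7a to Sbds (0.34), Slc39a12 (0.37) and Hiatl1 (0.40), and Scn10a to Uba3 (0.16), Def6 (0.20) and B4galt4 (0.24).

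The place of the members among all introns of a list varied as widely. In mouse dendrites the 25 introns had a median of 26 reads, near the 24 of all introns. In mouse somas the median was 33 against 22, with intron 10 of Scn8a and intron 20 of Scn2a1 the highest, which ranked 350 and 355 of 10568. In BAT cells the median was 16 against 29. The 5 introns in cardiomyocytes had a median of 2 reads against 53, and the highest had 6.

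The 5 genes Scn1a, Scn2a1, Scn3a, Scn7a and Scn9a lie together on mouse chromosome 2, within 1327797 nt at chr2:65295175-66622971 (mm9), Scn2a1 on the plus strand and the other 4 on the minus strand. Neighbours there did not share a pattern, since Scn3a and Scn7a were higher in mouse dendrites and Scn1a, Scn2a1 and Scn9a in mouse somas. As the reads carry no strand, intronic reads of a gene and of any transcript from its other strand cannot be told apart. Of the rat contigs, neither annotation nor sequence was analysed here.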

How the data were processed

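The deposited lists give, per intron, the read counts that the authors obtained from paired-end reads of aRNA libraries, trimmed of adapters, poly-A and poly-T and aligned to mm9 (mouse) or rn4 (rat) with RUM; uniquely placed intronic reads were counted after Bowtie alignment. They left out introns that contain a predicted gene or a poly(A) site, joined nearby reads into contigs and pooled the libraries of a condition. Reads carry no strand, and amplified reads are not independent molecules. Of 97783 mouse contigs, 62 on sequences missing from the genome used here were dropped from placement. Here each count was taken once per transcript and intron, with starts counted from 0 and ends not included. Introns came from the GENCODE annotation of mm9, 1 transcript per gene. Calls needed a 4-fold ratio and 10 reads, with a floor of 3 reads for unlisted genes. The members and lists were chosen with earlier results of these data known. Named genes were all members, and genes from the lists of related genes and markers and from the nearest genes by the rule in the text, not all of which are named; named introns were mainly those with the most reads per gene and list. Introns named for exon borders, adenines or AT and AC ends were chosen after their values were seen. Fold calls and run searches gave the known answers on simulated data. Python 3.11.15, pandas 2.3.3, numpy 2.4.6, scipy 1.17.1, pysam 0.24.0 and matplotlib 3.10.9 were used.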

Additional observations from a re-analysis of the deposited data

How the results depend on the processing

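The lists pool the libraries of a condition, so leaving out each library was not possible and no list has a replicate check. No paired analysis was possible because no library has its own values. With contigs of at most 400 nt in the lists of whole cells, the limit that the study's methods use for them, mouse somas had 7 listed introns and 105 reads of the sodium channel genes, rat somas 1 gene, 1 intron and 60 reads, and BAT cells 546 reads. With introns of at least 32 reads, rat somas listed 1 gene and cardiomyocytes 0. The log2 ratio of summed reads of mouse dendrites over somas was -2.14 on a median-ratio scale, -1.39 on a scale of sequenced reads and -1.09 without the intron with the most reads; in rat it was -3.37, -3.08 and, reversed, 1.28. For mouse somas over BAT cells, -0.07 became -0.45 on the median-ratio scale and 2.70 without the intron with the most reads. Without it, somas over cardiomyocytes gave 9.49 and BAT cells over cardiomyocytes 7.57. Single genes changed sign in the same setting: Scn2a1 to 3.19 and Scn8a to 2.83 for mouse dendrites over somas, and Scn8a to 0.24 in rat. Scn2a1 went to -1.36 for mouse somas over BAT cells, and Scn1a to -2.13 for BAT cells over cardiomyocytes. The rat value of Scn8a is too small to give a direction. The 11.70 of Scn8a for mouse somas over BAT cells is not a measured turn, since its only BAT intron was the one removed and the floor of 3 reads set the value. A fold of 2 gave 4 genes higher in mouse somas than in BAT cells in place of 2, but 1 of the 4, Scn10a, had 0 soma reads and counted only through the floor of 3 reads. The limit of 400 nt carried into the log2 ratios, added after the data were seen, gave 1.61 for mouse dendrites over somas (reversed), -0.38 in rat, 0.74 for mouse somas over BAT cells (reversed), 5.41 for somas and 4.67 for BAT cells over cardiomyocytes. A run of 8 adenines gave 3 contigs in BAT cells, and the rule around the 3′ end, added after the data were seen, 4 in dendrites, 4 in BAT cells and 0 in cardiomyocytes in place of 1 each. What lies behind these shifts was not tested. Genes in both lists had median log2 ratios from 0.27 to 0.73 over the 5 pairs, by which the median-ratio scale lowers each ratio. The other 67 alternatives tried for counts and sums left counts within 1.5 times and sums within their counting interval. Counts of under 10 reads, as in cardiomyocytes, limit what these lists show.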
